A study of Mus musculus with 10 samples.

Results

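The genes described here encode the receptors of serotonin, dopamine, noradrenaline, histamine and acetylcholine. They were chosen by symbol alone (*Htr*, *Drd*, *Adra*, *Adrb*, *Hrh*, *Chrm* and *Chrn* genes), which gave 53 of the 48397 genes of the count table. Of these, 14 belong to serotonin, 5 to dopamine, 9 to noradrenaline, 4 to histamine and 21 to acetylcholine. By their usual coupling, 10 act through Gq, 16 through Gi and 9 through Gs, and 18 are subunits of ion channels.

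Monoamines and acetylcholine reach the hypothalamus from small groups of neurons in the brainstem, the tuberomammillary nucleus and the basal forebrain, and most of their receptors are G protein-coupled. Receptors coupled to Gq release calcium and usually excite a neuron, those coupled to Gi lower cyclic AMP and usually inhibit it, and those coupled to Gs raise cyclic AMP. The paraventricular hypothalamus (PVH) holds neuroendocrine and autonomic neurons, including those that make oxytocin, vasopressin, somatostatin and the hormones that release corticotropin (CRH) and thyrotropin (TRH), and noradrenaline and serotonin are known regulators of their secretion.

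Single cells were picked by hand from the PVH of male mice over 7 weeks old, the offspring of *Agrp-IRES-Cre* and *Ai9* parents, in which Cre from the *Agrp* locus switches on tdTomato. All samples were of this genotype and of a single condition, so the comparisons are between cell clusters and not between treatments. The labels call the picked cells labelled neurons, whereas the methods use the red AGRP axons only to outline the PVH. The 10 samples are plates of 96 wells, 4 named with the prefix Q, 2 with AL and 4 with JM, and the plate was the replicate; the labels do not tie plates to animals, so p-values measure the spread between plates, which may be technical.

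The authors' table kept 706 of 960 wells as cells and gave each a cluster number, of which clusters 5, 6 and 11 (42 cells) were set aside by the study as non-PVH and the other 12 clusters held 664 cells. Cells had 50646 to 1078101 unique molecular identifiers (UMIs), with a median of 128672. Plate medians were 188176 to 283709 on the Q plates and 69514 to 127829 on the AL and JM plates. *Sim1*, which marks PVH neurons, was found in 59.9% of PVH cells and *Slc17a6*, a marker of glutamatergic neurons, in 80.4%, while *Slc32a1*, a marker of GABAergic neurons, was found in none of the 664, which allows a share of up to 0.452%. Of 12 markers of glia, vessels and ependyma, at least 1 was present in 104 PVH cells, 53 of them with *Pecam1*, *Cldn5* was at 0, and their summed level was 1.17 to 12.7 CPM (UMIs of a gene scaled to the same total per group of cells) depending on the cluster. Their part in the receptor results was not tested.

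Among 11 genes the study names as markers, the most abundant was *Oxt* in clusters 1 and 12, *Avp* in clusters 2, 3 and 4, *Sst* in clusters 7 and 8, *Trh* in clusters 9 and 15, *Crh* in clusters 10 and 13 and *Penk* in cluster 14. This ranking is by mean level. By share, cluster 13 had *Crh* in 43.8% of its cells but *Gad2* and *Pdyn* in 93.8% each. Cluster 14 had *Penk* in 45.6% of its cells and *Crh* in 100%. In cluster 10 the mean of *Avp* (1680 CPM) was close to that of *Crh* (1700 CPM). The marker genes helped to define the clusters and are given to place them only. Prefix and cluster were not independent: Q plates gave 48 of the 53 cells of cluster 2 and 40 of the 42 of cluster 8, but a single cell of cluster 3, and clusters 4, 12 and 13 came from AL and JM plates alone. In shares pooled over plates, differences of these clusters and of the plate prefixes cannot be told apart. The tests took out plate differences that are the same for every cluster. Prefix differences that vary by cluster were not taken out. In the test among all clusters, those that shared no plate, such as 8 and 12, were compared through the other clusters. *Oxt* was found in 94.7% or more of the cells of every PVH cluster, at means of 75.9 CPM (cluster 13) to 73590 CPM (cluster 1), so a UMI of an abundant gene alone does not mark a type. Of the 13 receptor genes found in at least 5% of PVH cells, 10 had no UMI at all in at least 1 PVH cluster. The smallest of these clusters held 16 cells, and the share of all genes of similar spread with such a cluster was not counted. The 90 wells with under 1000 UMIs held 1 receptor UMI among 15568.

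Receptor genes were sparse in these cells. Following the study's limits, a gene was on in a cluster when over 40% of its cells had at least 1 UMI, and off under 5%. Of the 53 genes, 4 were on in at least 1 PVH cluster: *Chrm2*, *Hrh3*, *Hrh1* and *Chrnb2*. A further 21 reached a highest share between these limits, 16 were off in all 12 clusters with some UMIs, and 12 had no UMI in PVH cells. Among the 41 with a UMI in PVH cells, 9.76% were on in a cluster, beside 30.6% of the 25952 genes of the whole table with a UMI in these cells. Of the 636 pairs of a receptor gene and a PVH cluster, 11 were on and 505 off.

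**Figure D1:**
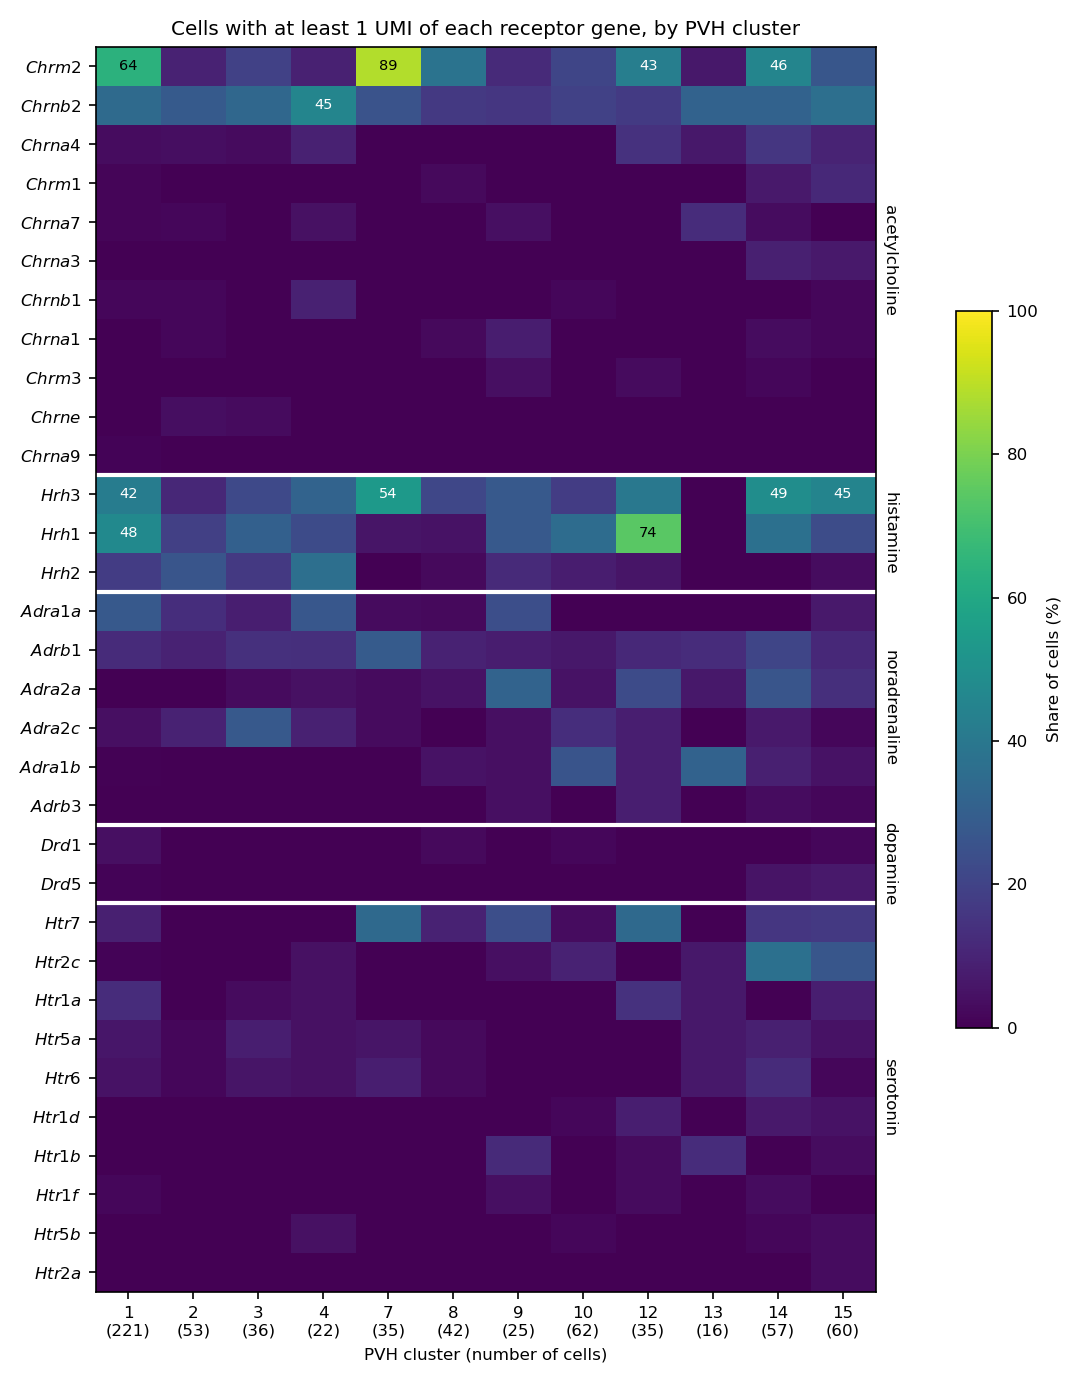
Share of cells (colour, %) with at least 1 UMI of each of the 32 receptor genes found in at least 2 PVH cells (rows, grouped by transmitter) in the 12 PVH clusters (columns, number of cells in brackets). Numbers are printed where the share is above 40%: the 11 such cells of the map belong to *Chrm2*, *Chrnb2*, *Hrh3* and *Hrh1*, and most of the map is near 0.

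By transmitter, at least 1 acetylcholine receptor gene was found in 62.5% of PVH cells (exact Clopper-Pearson 95% interval 58.7 to 66.2%), at least 1 histamine receptor gene in 58.4% (54.6 to 62.2%) and at least 1 noradrenaline receptor gene in 41.1% (37.3 to 45.0%). Serotonin receptor genes were found in 33.0% (29.4 to 36.7%). Dopamine receptor genes were found in 3.16% (1.97 to 4.79%), or 21 cells. All intervals cover counting error only.

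Which receptor genes differed among the clusters was asked of UMI sums, 1 for each cluster on each plate, in a model that takes plate differences out as a block (edgeR quasi-likelihood F test, adjusted over all genes tested). Of 13082 genes tested, 21.2% passed an adjusted p of 0.05. Of the 53 receptor genes, 17 passed the filter on low counts, and 14 of these were called: *Htr2c*, *Adra2a*, *Hrh2*, *Adra1b*, *Hrh1*, *Chrm2*, *Adra1a*, *Chrm1*, *Htr7*, *Htr1b*, *Htr1a*, *Chrna4*, *Chrna3* and *Adra2c*. The other 3 were *Hrh3* (adjusted p = 0.0928), *Chrnb2* (0.397) and *Adrb1* (1.00). A gene high in a single cluster is more likely to pass that filter, so the share called among the 17 says nothing about the 53. With no filter 14.9% of all genes were called and 16 of the 41 receptor genes with counts, the same 14 with *Htr6* and *Htr1d*. The clusters were drawn by the study from these cells with the receptor genes among all others, so these p-values describe how steady a difference was over plates and are no independent evidence that the clusters differ.

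Within prefixes, 10 of 14 receptor genes tested were called on the AL and JM plates alone, 9 of them among the 14 above and the other being *Hrh3* (adjusted p = 0.00295). On the Q plates alone, which gave fewer sums and lacked clusters 3, 4, 12 and 13, *Chrm2* was called of 17 tested (adjusted p = 0.0184). When sums needed at least 5 cells in place of 3, *Hrh2* (adjusted p = 0.0519), *Chrm1* (0.0525), *Chrna3* (0.0847), *Chrna4* (0.0867), *Hrh1* (0.120) and *Htr7* (0.240) lost the call. *Htr1b* was not tested in that setting. Each cluster was then set against all other PVH clusters of the same plates. Over the 12 such comparisons 3.29% of tests passed across all genes, and 5 of 114 tests of a receptor gene did, 2 higher and 3 lower.

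*Chrm2* (chr6:36388084-36528414, GRCm38, forward strand) encodes the Gi-coupled muscarinic receptor that slows the heart and damps transmitter release in the brain. It was the most widely found receptor gene, in 277 of 664 PVH cells or 41.7% (37.9 to 45.6%). Over the 10 plates its PVH level ran from 41.9 to 82.7 CPM with a median of 61.8. It was on in clusters 1 (64.3%), 7 (88.6%), 12 (42.9%) and 14 (45.6%), and it was found in every PVH cluster, down to 9.09% in cluster 4 and 1 of 16 cells in cluster 13. It differed among clusters (edgeR adjusted p = 0.000203), and it kept the call in all 17 other settings and subsets of plates tried.

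In cluster 7, which is rich in *Sst*, *Chrm2* was present in 31 of 35 cells. On the 8 plates with at least 3 such cells, the *Chrm2* level there was 59.5 CPM on AL5, 130 on JM5, 143 on Q5, 173 on Q7, 289 on JM6, 309 on Q6, 482 on JM7 and 856 on Q8. In the other PVH cells of the same plates it was 39.6 to 59.8 CPM. Every plate was higher in cluster 7 than in its other cells, and only the AL5 value lay within the range of the others. The mean *Chrm2* level was 305 ± 259 CPM against 47.5 ± 6.56 CPM (SD, n = 8), a log2 fold change of 2.22 ± 0.33 (SE; edgeR adjusted p = 0.000172), where 6.08% of all genes passed. The call was lost with sums of at least 5 cells (1.63, adjusted p = 0.181) and without the Q plates (2.00, adjusted p = 0.0686). Cluster 8, also rich in *Sst*, had *Chrm2* in 38.1% of its cells.

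In the *Avp*-rich cluster 2, *Chrm2* was found in 5 of 53 cells. Its level was 12.4 CPM on Q5, 0.725 on Q6, 4.22 on Q8 and 0 on Q7 and JM8, against 60.3 to 116 CPM in the other PVH cells, so no plate overlapped. *Chrm2* passed the filter on low counts through the other cells, so the filter favoured a call of a lower level. The log2 fold change was -5.30 ± 0.96 (SE; edgeR adjusted p = 0.0151), where 1.26% of all genes passed. The call was lost without Q6 (adjusted p = 0.0628), Q8 (0.0655) or JM8 (0.114), and it was lost at the same 0.114 on the Q plates alone and with at least 5 cells per sum, settings that leave out the 3 cells of JM8. The other *Avp*-rich clusters had *Chrm2* in 19.4% (cluster 3) and 9.09% (cluster 4) of their cells, with cluster means of 16.8 ± 22.2 and 10.7 ± 22.9 CPM (SD, n = 5 each), and neither passed the test (adjusted p = 0.0810 and 0.0902).

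The other muscarinic genes were rare. *Chrm1* (chr19:8663789-8683587), a Gq-coupled receptor of cortical neurons, was found in 15 PVH cells, 7 of them in cluster 15 and 4 in cluster 14. Its cluster 15 level was 0 to 42.0 CPM over 8 plates with a median of 15.8, and it differed among clusters (edgeR adjusted p = 0.00226). *Chrm3* was found in 3 PVH cells and *Chrm5* in 1, and *Chrm4* had no UMI in any cell.

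**Figure D2:**
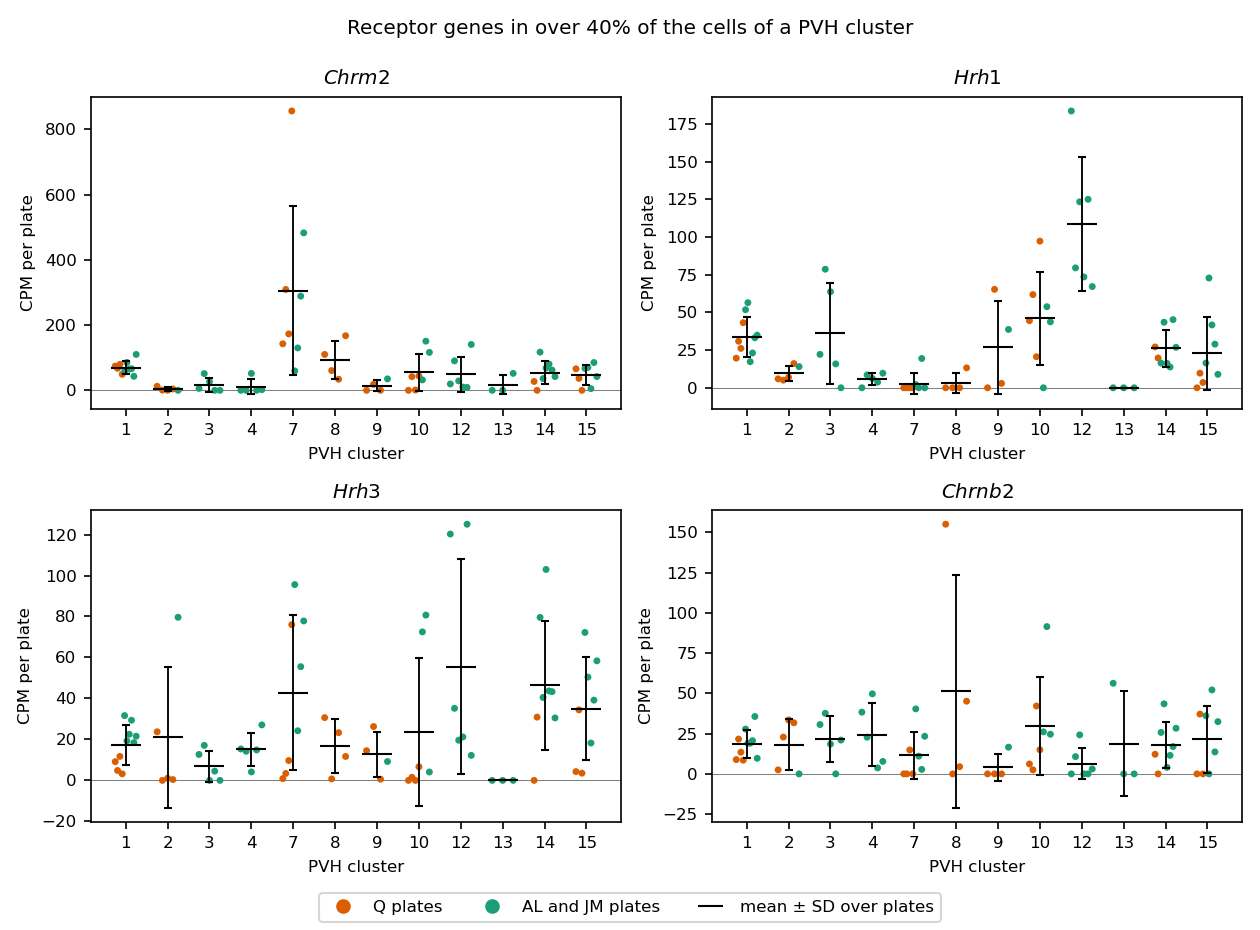
Level of *Chrm2*, *Hrh1*, *Hrh3* and *Chrnb2* in each PVH cluster (horizontal axis) as CPM per plate (vertical axis), for plates with at least 3 cells of the cluster. Points are plates, orange for Q and green for AL and JM, and black bars are the mean ± SD over plates. *Chrm2* stands highest in cluster 7, with a mean of 305 CPM, and *Hrh1* in cluster 12, with a mean of 109 CPM, while *Chrnb2* overlaps between all clusters.

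Of the nicotinic subunits, *Chrnb2* (chr3:89746195-89764632, reverse strand), the beta subunit of the main brain channel, was found in 196 PVH cells or 29.5% (26.1 to 33.1%). It was present in all 12 clusters, from 4 of 25 cells (cluster 9) to 10 of 22 (cluster 4, 45.5%), the only share above 40%. Its PVH level was 19.3 ± 4.53 CPM (SD, n = 10 plates). No difference among clusters was detected, with cluster means from 4.15 ± 8.29 CPM (cluster 9, SD, n = 4) to 51.1 ± 72.2 CPM (cluster 8, SD, n = 4). *Adar* overlaps *Chrnb2* on the opposite strand. Whether counting used the strand is not given in the sources used here, so reads from the stretch the 2 genes share cannot be told apart.

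Alpha subunits that pair with it were found in far fewer cells. *Chrna4* (chr2:181018380-181043546) was present in 33 PVH cells, in 9 of the 57 cluster 14 cells, 5 of the 35 in cluster 12 and 6 of the 60 in cluster 15, with none in clusters 7 to 10. It differed among clusters (edgeR adjusted p = 0.00620; DESeq2 0.490). *Chrna3* (chr9:55010111-55026562), a subunit of ganglionic channels, was seen in 9 PVH cells, 5 in cluster 14 and 4 in cluster 15, and in 3 of 13 cells of the non-PVH cluster 11. Its adjusted p was 0.00636, and 0.0737 without AL5 and 0.0512 without JM6. *Chrna7* was found in 10 PVH cells, at most 12.5% of a cluster, and *Chrnb1* and *Chrna1*, subunits of the muscle channel, in 9 and 7. *Chrne* was found in 3 cells, *Chrna9* in 2, and *Chrna2*, *Chrna5*, *Chrna10* and *Chrng* in 1 each. *Chrna6*, *Chrnb3*, *Chrnb4* and *Chrnd* had no UMI in any of the 706 cells.

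Histamine receptor genes were next in spread. *Hrh1* (chr6:114397936-114483296, forward strand), the Gq-coupled receptor that sedating antihistamines block, was found in 225 PVH cells or 33.9% (30.3 to 37.6%). It was on in cluster 12 (26 of 35 cells, 74.3%) and cluster 1 (47.5%), both rich in *Oxt*. Clusters 7 and 8 had 2 cells with it each, of 35 and 42, and the 16 cells of cluster 13 had none. It differed among clusters (edgeR adjusted p = 5.06e-05).

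The *Hrh1* level in cluster 12 was 184 CPM on AL5, 79.5 on AL6, 123 on JM5, 73.5 on JM6, 125 on JM7 and 67.2 on JM8. In the other PVH cells of these plates it was 17.5 to 52.0 CPM, so all 6 plates of cluster 12 lay above all values of the others. The *Hrh1* log2 fold change was 1.78 ± 0.37 (SE; edgeR adjusted p = 0.0185), where 1.92% of all genes passed. The call was lost without AL5 (adjusted p = 0.116), JM5 (0.0884), JM6 (0.0505) or JM7 (0.0685), at log2 fold changes of 1.57 to 1.84, and with at least 5 cells per sum (1.56, adjusted p = 0.285).

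In cluster 7 *Hrh1* was 0 on 6 of 8 plates, 2.12 CPM on AL5 and 19.4 on JM6, against 15.5 to 45.0 CPM in the other PVH cells. It was lower in cluster 7 on all 8 plates, and only JM6 reached the range of the others. The cluster held 8 *Hrh1* UMIs in all, 7 of them on JM6. *Hrh1* passed the filter on low counts through the other cells, so the filter favoured a call of a lower level. The log2 fold change was -6.02 ± 1.30 (SE; edgeR adjusted p = 0.00626), and the call held without any 1 plate but not on the Q plates alone (adjusted p = 0.0822), the AL and JM plates alone (0.234) or with at least 5 cells per sum (0.461). In cluster 7, then, the level of *Chrm2* was above and that of *Hrh1* below the level pooled over the other PVH cells of the same plates. A low *Hrh1* level was not particular to cluster 7. Its mean was 2.69 ± 6.80 CPM in cluster 7 (SD, n = 8), 3.31 ± 6.61 CPM in cluster 8 (SD, n = 4) and 0 in cluster 13.

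*Hrh3* (chr2:180099465-180104488, reverse strand), the Gi-coupled autoreceptor of histamine neurons that also sits on other neurons, was found in 229 PVH cells or 34.5% (30.9 to 38.2%). It was on in cluster 7 (54.3%), 14 (49.1%), 15 (45.0%) and 1 (42.1%), in 14 of 35 cells of cluster 12, and at 0 in the 16 cells of cluster 13. The share differed by prefix, with 24.4% of PVH cells on Q plates and 43.1% on AL and JM plates. The PVH level of *Hrh3* was 5.01 to 12.1 CPM on the 4 Q plates and 22.8 to 40.8 CPM on the 6 others, without overlap. The share of all genes with such a gap over PVH cells was not counted. The mix of clusters also differed by prefix, and its part in this was not tested. In the non-PVH cluster 11 it was found in 11 of 13 cells. An unnamed gene model, Gm17180, overlaps *Hrh3* on the other strand.

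*Hrh2* (chr13:54192129-54236180), the Gs-coupled histamine receptor, was found in 80 of 664 PVH cells (95% interval 9.67 to 14.8%). It was present in 17.6% of cluster 1, 26.4% of cluster 2, 16.7% of cluster 3 and 36.4% of cluster 4, but in 2 of the 35 cells of cluster 12, which is rich in *Oxt* like cluster 1. Of the other 8 clusters, 7, 13 and 14 had none in 35, 16 and 57 cells, and the rest had between 2.38% (cluster 8) and 3 of 25 cells (cluster 9). In cluster 4 the *Hrh2* level was 17.1 to 51.1 CPM over 5 plates, with none at 0. It differed among clusters (edgeR adjusted p = 2.76e-05), while no single cluster passed against the others. *Hrh4* had no UMI in any cell.

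**Figure D3:**
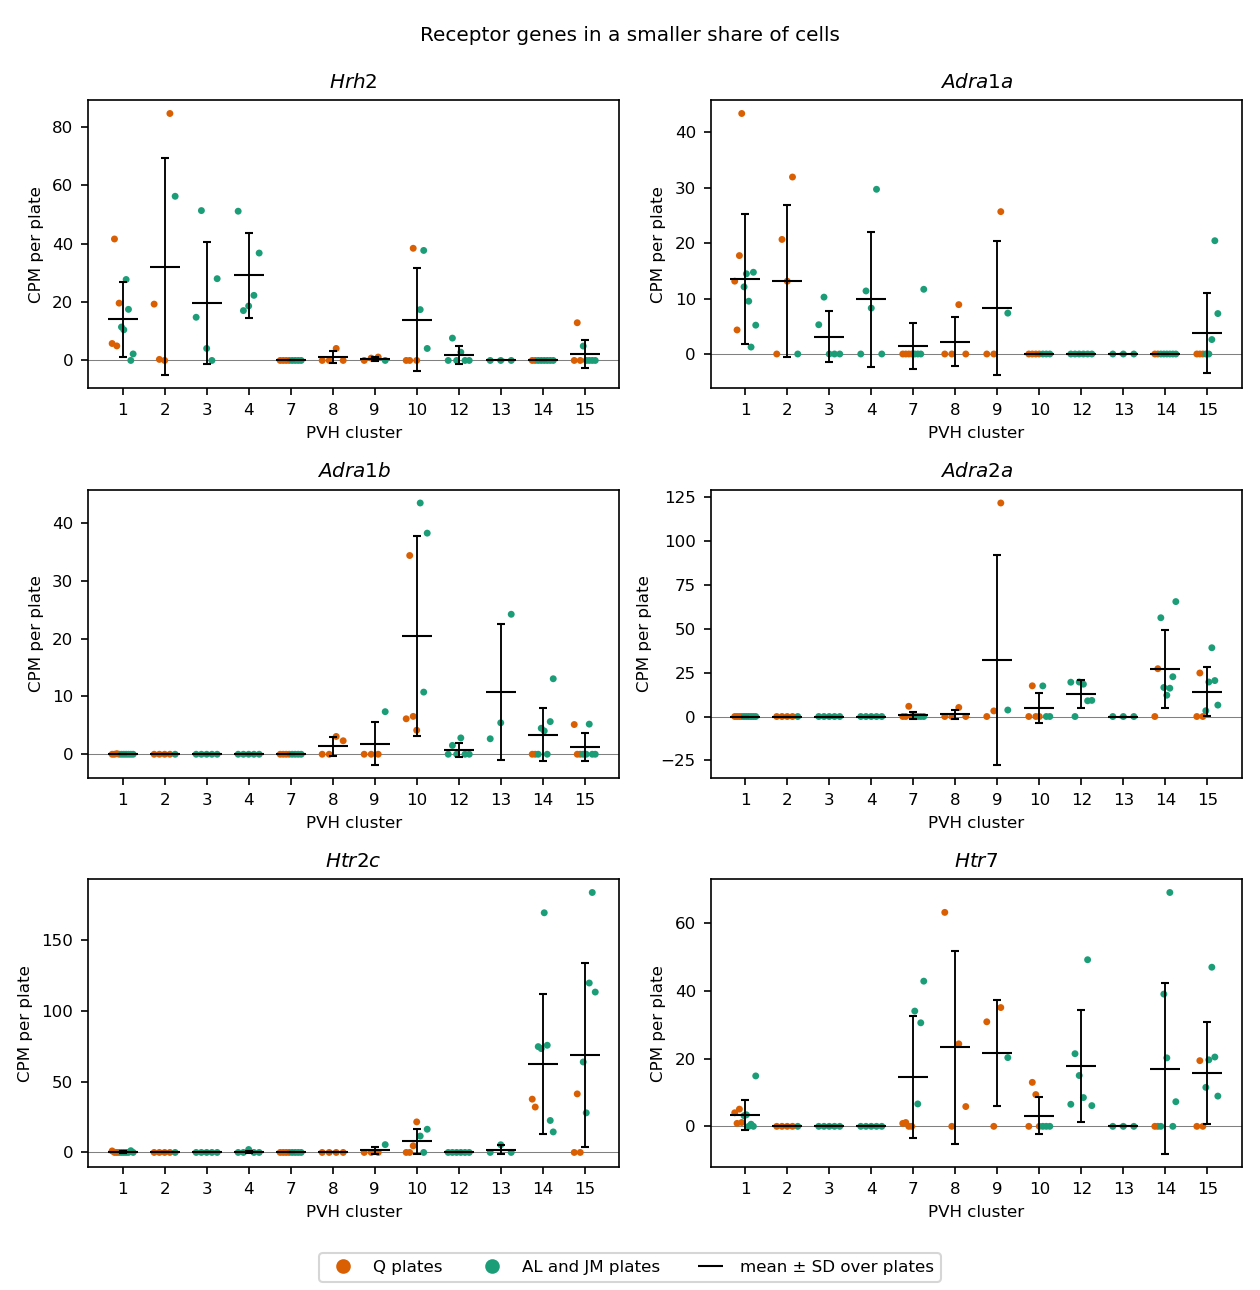
Level of *Hrh2*, *Adra1a*, *Adra1b*, *Adra2a*, *Htr2c* and *Htr7* in each PVH cluster (horizontal axis) as CPM per plate (vertical axis), drawn with points, colours and bars for plates, prefixes and mean ± SD over plates. *Adra1b* stands in clusters 10 and 13 and *Adra1a* in clusters 1, 2, 4 and 9, and *Htr2c* has means of 62.6 and 68.8 CPM in clusters 14 and 15, 7.76 CPM in cluster 10 and lower means elsewhere.

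Subtypes of the noradrenaline receptors were highest in different clusters. *Adra1a* (chr14:66635251-66771168) and *Adra1b* (chr11:43774606-43901210) both encode Gq-coupled receptors, through which noradrenaline excites hypothalamic neurons. *Adra1a* was found in 90 PVH cells, in 62 of the 221 cluster 1 cells (28.1%), 6 of the 22 in cluster 4, 6 of the 25 in cluster 9 and 7 of the 53 in cluster 2, with no UMI in the 170 cells of clusters 10, 12, 13 and 14. Its cluster 1 level was 1.25 to 43.4 CPM over the 10 plates with a median of 12.6. *Adra1b* was found in 36 PVH cells, at 31.3% in cluster 13 and 25.8% in cluster 10, and in 1 of 221 cells of cluster 1 and none of clusters 2, 3, 4 and 7. Its cluster 10 level was 4.16 to 43.5 CPM over 7 plates with a median of 10.8, so no plate was at 0.

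Both differed among clusters, *Adra1a* with an edgeR adjusted p of 0.000388 (DESeq2 0.0658) and *Adra1b* with 3.76e-05. In the single comparison of cluster 10 with the others *Adra1b* stood at the threshold (adjusted p = 0.0502). Of the 90 cells with *Adra1a* and the 36 with *Adra1b*, 1 cell had both, where the product of the shares over all PVH cells would give 4.88. Within cluster 10 no cell had *Adra1a*, and within cluster 1 a single cell had *Adra1b*, so this count carries no more than the pattern over clusters.

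The Gi-coupled *Adra2a* (chr19:54044151-54048982), the receptor through which clonidine acts, was found in 48 PVH cells. It was present in 8 of the 25 cluster 9 cells, 15 of the 57 in cluster 14, 8 of the 35 in cluster 12 and 8 of the 60 in cluster 15, but in 0 of 221 cells in cluster 1 (up to 1.36% allowed) and 0 of 53 in cluster 2. In cluster 14 the *Adra2a* level was 0 to 65.3 CPM over 8 plates with a median of 19.5, and it was 0 on all 10 plates of cluster 1. It differed among clusters (edgeR adjusted p = 1.57e-05).

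*Adra2c* (chr5:35278319-35281763), the other Gi-coupled subtype, was found in 44 PVH cells, at 27.8% in cluster 3 and 12.9% in cluster 10. No PVH cell had both *Adra2a* and *Adra2c*, where the product of the shares over all PVH cells would give 3.18. Within clusters 14, 12 and 10 the products were 1.05, 0.686 and 0.387, and whether the 2 genes exclude each other was not tested. The call for *Adra2c* (edgeR adjusted p = 0.0250; DESeq2 0.689) was lost without Q6 (0.0588), Q8 (0.0981), AL5 (0.0719) or JM7 (0.0666). *Adra2b* was absent from PVH cells and *Adra1d* from all cells.

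*Adrb1* (chr19:56722199-56733113), the Gs-coupled beta receptor of heart and brain, was found in every PVH cluster, at 6.45% (cluster 10) to 28.6% (cluster 7, 10 of 35 cells). No difference among clusters was detected. *Adrb3* was found in 7 PVH cells.

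Among serotonin receptors none was on. *Htr2c* (chrX:146962513-147197277), the Gq-coupled receptor that lowers food intake when stimulated, was found in 48 PVH cells, 37 of them in clusters 14 and 15. Cluster 14 had it in 21 of 57 cells (36.8%), cluster 15 in 16 of 60 and cluster 10 in 6 of 62, and it had no UMI in clusters 2, 3, 7, 8 and 12. In cluster 14 the *Htr2c* level was 14.5 to 169.6 CPM over 8 plates with a median of 55.6, and no plate was at 0. In cluster 15 it was 0 on Q5 and Q8, 41.4 CPM on Q7 and 28.0 to 184 CPM on the 5 other plates. Its share moved with the prefix there, with 4.55% of cells on Q plates and 39.5% on AL and JM plates, and over all PVH cells with 2.93% and 10.9%; the part of the prefix in this was not tested. It had the lowest adjusted p among the receptor genes (edgeR 1.14e-08; 0.170 on the Q plates alone). Several small RNA genes lie inside *Htr2c* on the same strand.

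*Htr2c* was lower in cluster 12, with 0 UMIs on all 6 plates against 8.18 to 39.5 CPM in the other PVH cells. It passed the filter on low counts through these other cells alone, so the filter favoured a call of a lower level. Pooled over the others the *Htr2c* level was 18.9 CPM. Counted by cells, 0 of 35 allows a share of up to 8.57%, which is above the 7.23% over all PVH cells. No least fold follows for *Htr2c*. Its edgeR adjusted p was 0.0418 and rose to 0.0706 without AL5, 0.0719 without AL6, 0.102 without JM5, 0.0995 without JM6, 0.106 without JM7 and 0.0790 without JM8, and to 0.222 with at least 5 cells per sum. The higher level in cluster 14 did not pass (adjusted p = 0.0555, log2 fold change 3.43 ± 0.99, SE). Cluster 12 was among the 5 PVH clusters with no *Htr2c* UMI. Cluster 3, also with none, did not pass against the others (edgeR adjusted p = 0.0508).

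*Htr7* (chr19:35958734-36057507), a Gs-coupled receptor of thalamus and hypothalamus, was found in 74 PVH cells, at 34.3% in both clusters 7 and 12 (12 of 35 cells each) and 24.0% in cluster 9. It had no UMI in the *Avp*-rich clusters 2, 3 and 4 or in cluster 13. In cluster 7 the share was 12.5% on Q plates and 52.6% on AL and JM plates. It differed among clusters (edgeR adjusted p = 0.00312), and the non-PVH cluster 11 had it in 11 of 13 cells.

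The Gi-coupled *Htr1a* (chr13:105443639-105448122), the target of buspirone, was found in 41 PVH cells, at 14.3% in cluster 12 and 12.7% in cluster 1 (edgeR adjusted p = 0.00616; 0.225 on the AL and JM plates alone). *Htr1b* (chr9:81628291-81633828), a Gi-coupled receptor of nerve endings, was found in 8, of which 3 were in cluster 9 and 2 each in clusters 13 and 15 (adjusted p = 0.00413, and 0.0611 without AL5). Of the others, *Htr5a* and *Htr6* were found in 30 and 28 PVH cells, *Htr1d* in 11, *Htr1f* in 8, *Htr5b* in 5, *Htr2a* in 2 and *Htr4* and *Htr2b* in 1 each. The ion channel subunits *Htr3a* and *Htr3b* had no UMI in PVH cells.

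The dopamine receptors *Drd1*, *Drd5* and *Drd2* were found in 12, 9 and 1 PVH cells, with a highest share of 6.67% (*Drd5* in cluster 15). *Drd3* and *Drd4* had no UMI in any cell. At these counts no pattern over clusters was detectable, and none of the 5 genes passed the filter on low counts.

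Some receptor genes met in the same cells. The pairs given here were picked from all pairs of the 13 genes found in at least 5% of PVH cells. *Chrm2* and *Hrh3* were found together in 116 PVH cells, *Chrm2* and *Hrh1* in 113 and *Hrh3* and *Hrh1* in 102, where the products of their shares give 95.5, 93.9 and 77.6. Within cluster 1 the first of these pairs was at 60 cells against 59.8. *Hrh3* and *Hrh1* were at 55 cells against 44.2 there. *Adra1a* and *Hrh2* were together in 23 PVH cells (10.8 from the product), 17 of them in cluster 1, where the product gives 10.9. *Htr2c* and *Adra2a* shared 12 cells (3.47 from the product), 7 of them in cluster 14, where the product gives 5.53. *Hrh2* and *Htr2c* shared none (5.78 from the product), but no cell of cluster 14 had *Hrh2*, so the product there is 0. Cells of a plate share depth and batch, so these are counts with no test.

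The number of receptor genes detected per cell was compared after thinning each cell to 63046 UMIs, which left out 71 cells, 1 of them from Q plates. PVH cells then had a median of 2 receptor genes (mean 2.21) and at most 8, and 84 of 600 cells had none; without thinning the mean was 2.55. Pooled over plates, the means ran from 1.00 in cluster 2 and 1.17 in cluster 8 to 3.17 in cluster 12 and 3.52 in cluster 14.

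Within a cluster the number also moved with the plate prefix. The number of all genes detected per cell at this depth was not counted, so whether this is particular to receptor genes was not tested. In cluster 14 the plate means were 1.44 and 2.00 on the 2 Q plates and 3.18 to 5.60 on the 6 AL and JM plates. In cluster 15 they were 0.429 to 2.00 on the Q plates and 2.58 to 4.75 on the others, without overlap. In cluster 1 they were 1.62 to 2.39 on the Q plates and 2.25 to 3.57 on the others. The order of the clusters therefore differed by prefix: on AL and JM plates the average of the plate means was 4.36 in cluster 14, 3.86 in cluster 15 and 3.23 in cluster 12, while on Q plates clusters 1 (1.91) and 7 (1.89) lay above clusters 14 (1.72) and 15 (1.14). Clusters 2 and 8 gave plate means from Q plates only and cluster 12 from AL and JM plates only, so their numbers and the prefix cannot be told apart.

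**Figure D4:**
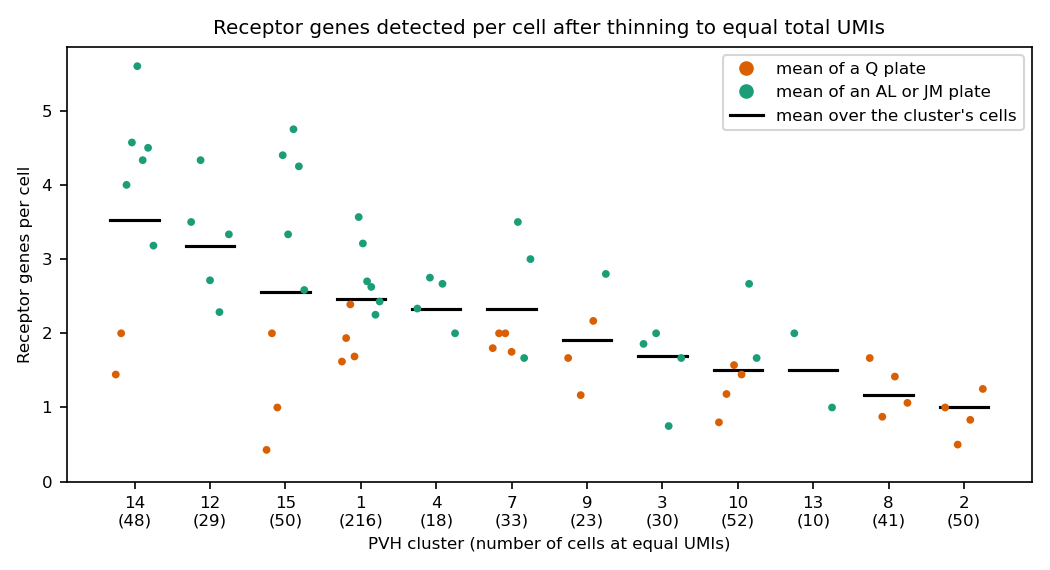
Receptor genes with at least 1 UMI per cell (vertical axis) in each PVH cluster (horizontal axis, number of cells in brackets), after thinning to 63046 UMIs per cell. Points are means of plates with at least 3 cells, orange for Q and green for AL and JM, and black lines are means over all cells of the cluster. In clusters 14 and 15 every Q plate lies below every other plate, and clusters 2 and 8 hold Q plates only. All genes were not counted in this way.

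To see which receptor genes moved with the prefix inside 1 cluster, cluster 1 was compared between its 4 Q plates and its 6 AL and JM plates. Of all genes tested 11.1% passed, and of 9 receptor genes tested 0 did (edgeR), with 1 at an unadjusted p under 0.05 and 1 called by DESeq2, both *Hrh3*. The *Hrh3* level was 3.21 to 11.7 CPM on Q plates and 18.4 to 31.6 CPM on the others. It was the single receptor gene of the 9 whose plates did not overlap, beside 12.2% of all genes tested. Its log2 fold change was -1.50 ± 0.51 (SE; edgeR adjusted p = 0.0702, DESeq2 0.0162).

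In the same comparison *Chrm2* and *Hrh1* had log2 differences of 0.13 (95% interval -0.40 to 0.66) and -0.08 (-0.84 to 0.67), and both intervals include 0. *Adra2c*, left out by the filter, was found in 0 of 107 cells of cluster 1 on Q plates and in 9 of 114 on the others, and was called with no filter (adjusted p = 0.0429) and when Q7 (0.0454), Q8 (0.0456), JM6 (0.0189) or JM7 (0.0168) was left out. Without Q5 (0.0636) or Q6 (0.0508) it also passed the filter and was not called. With all its UMIs on AL and JM plates, *Adra2c* passed the filter through these plates alone, so the filter favoured a call. Beside these calls, 11.1% of all genes tested passed in the main fit, and 1220 of 22025 were called with no filter.

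**Figure D5:**
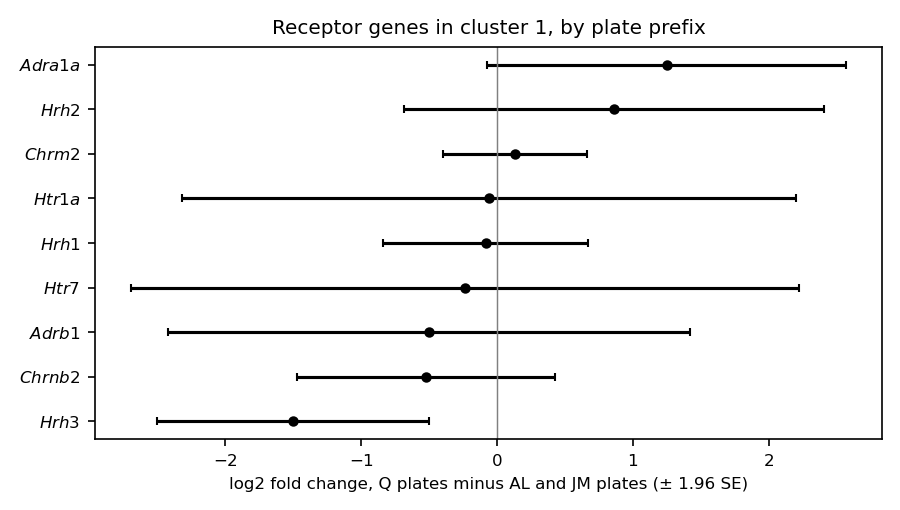
Log2 fold change of the 9 receptor genes tested in cluster 1 (rows), Q plates minus AL and JM plates (horizontal axis, 0 meaning no difference). Points are fitted values and bars intervals of about 95%; *Hrh3* at -1.50 is the single gene whose bar leaves out 0.

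Genes that make, carry, break down or transduce these transmitters were counted from lists of 36 symbols. Of 21 that passed the filter, 10 differed among clusters, beside the 21.2% of all genes. Of 15 genes for synthesis and transport 2 were tested and called, *Th* (edgeR adjusted p = 1.35e-06), the rate-limiting enzyme of catecholamine synthesis, and *Ddc* (2.20e-10), which makes dopamine and serotonin from their precursors. Of 6 for breakdown 5 were tested and *Maob* (0.00274) and *Ache* (0.00279) called. Of 5 chaperones and toxin-like regulators of nicotinic receptors 3 were called, *Ly6h* (1.41e-12), *Tmem35* (8.84e-05) and *Ly6e* (0.000160), and of 10 G protein alpha subunits 9 were tested and 3 called, *Gnas* (5.13e-17), *Gnai1* (0.00690) and *Gnal* (0.0394). *Gnaq* and *Gna11*, which carry the Gq signal, did not pass (0.976 and 0.948).

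For each receptor gene that was on, the 3 genes with the most similar level over the 12 cluster means were listed by Pearson's r of log2(CPM + 1), out of 16497 genes with at least 50 UMIs. For *Chrm2* they were *Spin2c* (0.90), *Arxes2* (0.89) and *Gpr26* (0.88), and for *Hrh1* *Tmem192* (0.94), *Fam135b* (0.92) and *Nsun6* (0.92). For *Hrh3* they were *Nkrf* (0.94), *Rnpepl1* (0.92) and *Zfp961* (0.91), and for *Chrnb2* *Grm8* (0.90), *Gchfr* (0.84) and *Nicn1* (0.84). The best of 16497 values over 12 points that share plates is high by selection, so these are descriptions without a test.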

How the data were processed

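The authors deposited raw counts of UMIs per gene and well, and a table with the cells kept after quality control and their cluster numbers; spike-in counts and well barcodes were not used here. The submitters' processing notes name Trimmomatic 0.36, STAR 2.5.3a and GRCm38.p5, while the annotation, strand setting and any correction of UMIs are not given in the sources used here. Depth was 50646 to 1078101 UMIs per cell.

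Wells were matched to plates by the column names, and cells to clusters by the deposited table. A gene was detected with at least 1 UMI. Shares had exact Clopper-Pearson 95% intervals, and a count of 0 allowed up to 3 counts. CPM is a gene's UMIs over all UMIs of a cluster's cells on a plate, times 1e+06. No doublet caller was run, since cells were picked singly by hand. UMIs were summed per plate and cluster (at least 3 cells, clusters on at least 3 plates) and tested with edgeR 4.0.16 under R 4.3.3 (TMM, filterByExpr, quasi-likelihood F test, plate as an additive block, Benjamini-Hochberg over all genes tested, threshold 0.05). The block is the plate itself, on which all clusters of a sum pair were prepared together. DESeq2 1.42.0, which the methods name, no filter, RLE normalization, no block, at least 5 cells per sum and leaving out each plate were alternatives, and the Q plates alone and the AL and JM plates alone were added after seeing the data. On simulated counts for the comparison among clusters, with 10678 genes tested, 60% of genes changed 4-fold and 100% of those changed 32-fold were recovered. For cluster 12 against the others these shares were 27% and 100%, over 10503 genes. The changed genes were drawn from those above a minimum mean count, all raised and none lowered, with the same spread for every gene. These shares therefore do not cover sparse genes, such as most receptor genes, or decreases.

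Positions came from the GENCODE M21 annotation of GRCm38, in which all 53 symbols were found. Genes named with values were those on in a PVH cluster or past the threshold, and the others were given as counts, with 1 of them not reported here; *Tmem35* is the older symbol of Tmem35a. The receptor genes and all lists were chosen with earlier results of these data known. Python 3.11.15, numpy 2.4.6, pandas 2.3.3, scipy 1.17.1 and matplotlib 3.10.9 were used.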

Additional observations from a re-analysis of the deposited data

Results flagged for a closer look

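Of 23 sets of plate values examined for a plate far from the rest, 2 had one, where chance nominally gives about 1 in 20. That rate was not computed for sets with many zeros or with shared cells. The level of *Hrh1* in cluster 7 was 19.4 CPM on JM6, while the other 7 plates lay at 0 to 2.12 CPM; without JM6 the difference of cluster 7 from the other clusters kept its call (adjusted p = 0.00396). The level of *Chrm2* in the PVH cells outside cluster 2 was 116 CPM on Q8, while the other 4 plates lay at 60.3 to 69.3 CPM. On this plate cluster 7, left in that sum, stood at 856 CPM.

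Wells outside the cell table, which no comparison used, also held receptor UMIs. Of the 53 genes, 30 had at least 1 UMI in these 254 wells, 1020 UMIs in all over 105 wells. The 164 of these wells with at least 1000 UMIs had a median of 41709 UMIs and a mean of 1.21 receptor genes.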

How the results depend on the processing

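The count of receptor genes that differed among clusters, 14, was 7 by DESeq2, 8 with at least 5 cells per sum and 1 on the Q plates alone, and 12 to 16 when 1 plate was left out. DESeq2 gave an adjusted p for 9 of the 14 and called 6. The calls with at least 5 cells per sum were not all among the 14 either. The count of calls in single clusters, 5, was 25 by DESeq2, 17 with no filter on low counts, 11 without the replicate block, 1 with at least 5 cells per sum and 1 on the Q plates alone. All 5 were among the calls of DESeq2, without the filter and without the block, but 0 of them with at least 5 cells per sum, where the single call was *Adra1a* in cluster 10 (adjusted p = 0.0414), and the call on the Q plates was *Chrm2* in cluster 7; leaving out 1 plate gave 3 (without AL5) to 6, with 3 to 5 of the 5 among them, and the 5 calls on the AL and JM plates alone held 2 of them. The related genes called, 10, were 6 on the Q plates alone and 9 to 11 without 1 plate. Between prefixes in cluster 1, 0 receptor genes became 1 by DESeq2 (*Hrh3*) and 1 with no filter (*Adra2c*), and 0 to 1 without 1 plate. The 4 genes on in a cluster were 2 when detection needed at least 3 UMIs, and stayed 4 without any 1 plate. The causes of these shifts were not tested. The settings that left out cells or plates also had fewer sums. No called difference changed direction under these alternatives, but between prefixes in cluster 1 the uncalled differences of *Hrh1*, *Htr7* and *Htr1a* changed sign when single plates were left out. At 3 UMIs the highest shares of *Hrh3* and *Chrnb2* fell to 37.1% and 31.8%, below the limit of 40%. Over the alternatives, adjusted p-values of called genes stayed below the threshold 257 times and rose above it 48 times. Sums held as few as 3 cells, and levels near 0 could not be told from absence at this depth.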
